A study of Mus musculus with 4 samples.

Results

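Mural cells, the pericytes and smooth muscle cells that wrap blood vessels, were taken from single-cell RNA-seq of injured mouse Achilles tendon. Cells were chosen by measured transcripts of the same data. A cell was taken when its Rgs5 and Myh11 transcripts together reached 3 unique molecular identifiers (UMIs, each standing for 1 captured transcript) and Pdgfrb reached 1. It also had no Pecam1, Cdh5, Ptprc or Pax7 UMI and fewer than 3 Tnmd UMIs. Of 13459 cells kept in 2 libraries, 278 met this rule, and the series held 19021 kept cells in all. They comprised 65 of 6388 cells (1.02%, 95% exact binomial interval 0.786 to 1.30) of the library labelled Prox1 eGFP at day 21 after B/T. In the library labelled Vegfc CRE at day 7 after B/T, 213 of 7071 cells (3.01%, 2.63 to 3.44) qualified. B/T is the labels' own abbreviation for the treatment. Per the labels, 5 tendons were pooled in each group, so each group was 1 library and the animals could not be told apart. The protocol describes sorting of a Prox1-expressing population while the cell type label reads unsorted. Strain, sex, age, the driver of the reporter and the use of the CRE are not given in the sources used here. Reporter line, day and any difference in sorting cannot be told apart between these libraries.

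Pericytes sit on capillaries inside the basement membrane and are recruited by PDGF-B through the receptor PDGFRB, whereas vascular smooth muscle cells surround larger vessels and contract. Rgs5 encodes a regulator of G-protein signalling that is abundant in pericytes, and Myh11 encodes smooth muscle myosin heavy chain. Intermediate cells express both programmes. In the mm10 annotation the protein-coding Rgs5 gene lies at chr1:169655501-169695813 on the plus strand and Myh11 at chr16:14194535-14291372 on the minus strand. Injury is known to bring vessels into tendon, a tissue that is sparsely vascularised when healthy.

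The cells were divided into Rgs5-leading cells, with more Rgs5 than Myh11 UMIs, and Myh11-leading cells, with at least as many Myh11 as Rgs5 UMIs. At day 21, 47 of 65 cells were Rgs5-leading (72.3%, 59.8 to 82.7) and 18 were Myh11-leading. In Vegfc CRE, 199 of 213 were Rgs5-leading (93.4%, 89.2 to 96.4) and 14 were Myh11-leading. These intervals cover counting error within 1 library only, and no test between the libraries was possible. UMIs summed to 669525 over the mural cells at day 21 and 3191632 in Vegfc CRE. The median was 9256 UMIs per mural cell at day 21 and 11491 in Vegfc CRE.

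Acta2 (smooth muscle actin, chr19:34241090-34255590) and Tagln (transgelin, chr9:45929619-45936058), the markers that played no part in the choice, followed the label. Fibroblast-gated cells had Pdgfra, at least 10 UMIs of Dcn, Col1a1 and Col3a1, and no Rgs5 or Myh11 UMI. That last condition can lower Acta2 and Tagln in the fibroblast-gated cells. Acta2 had a UMI in 93.6% of Rgs5-leading cells at day 21 and in 91.0% in Vegfc CRE, against 31.4% and 52.9% of fibroblast-gated cells and 8.45% and 13.9% of leukocyte-gated cells (at least 2 Ptprc UMIs) of the same libraries. Tagln had a UMI in 89.4% and 81.9% of Rgs5-leading cells, against 25.2% and 48.0% of fibroblast-gated cells and 8.45% and 5.53% of leukocyte-gated cells. Median depth was 9531 and 11334 UMIs in the Rgs5-leading cells, 18341 and 22783 in the fibroblast-gated cells and 10475 and 5782.5 in the leukocyte-gated cells. Markers of other cells were present at low or moderate levels. The 14 fibroblast markers summed to 10549 CPM, UMIs scaled to a common total, in mural cells at day 21 and 7037 CPM in Vegfc CRE, against 46157 and 31501 CPM in fibroblast-gated cells. Pdgfra, Dcn and Col1a1 are in this list and also define the fibroblast gate, so part of that gap was set by the choice of cells. The 14 leukocyte markers summed to 25.4 CPM in mural cells at day 21, where 9 were at 0, and to 361 CPM in Vegfc CRE, where only Ptprc, which the rule bars, was at 0. No barcode that the libraries shared was a mural cell, and 1 mural cell in each library was called a doublet. Prox1 was detected in 10.6% of Rgs5-leading cells at day 21 and 0.503% in Vegfc CRE. Leukocyte-gated cells, which should lack the gene, gave 9.86% and 0.0395%. After thinning to 2000 UMIs per cell the day 21 values were 8.70% (2.42 to 20.8) and 1.45% (0.0367 to 7.81), with overlapping intervals. Thinned fibroblast-gated cells of day 21 gave 1.90% (0.393 to 5.45) and thinned Myh11-leading cells 0% (0 to 18.5). Overlap does not show the values to be equal, and their difference was not tested.

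The mural cells varied widely among themselves. Rgs5-leading cells of day 21 had 6 to 261 Rgs5 UMIs (median 33) and 0 to 27 Myh11 UMIs (median 5). Rgs5-leading cells of Vegfc CRE had 3 to 364 Rgs5 UMIs (median 70) and 0 to 51 Myh11 UMIs (median 2). Most cells of this side therefore carried Rgs5 far above the entry level. Myh11-leading cells had 0 to 25 Rgs5 UMIs (median 3) and 3 to 130 Myh11 UMIs (median 17) at day 21. In Vegfc CRE they had 0 to 23 Rgs5 UMIs (median 0) and 3 to 118 Myh11 UMIs (median 19). Acta2 ranged from 0 to 451 UMIs in Rgs5-leading cells and from 0 to 469 in Myh11-leading cells at day 21, so the sides overlapped cell by cell.

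**Figure D1:**
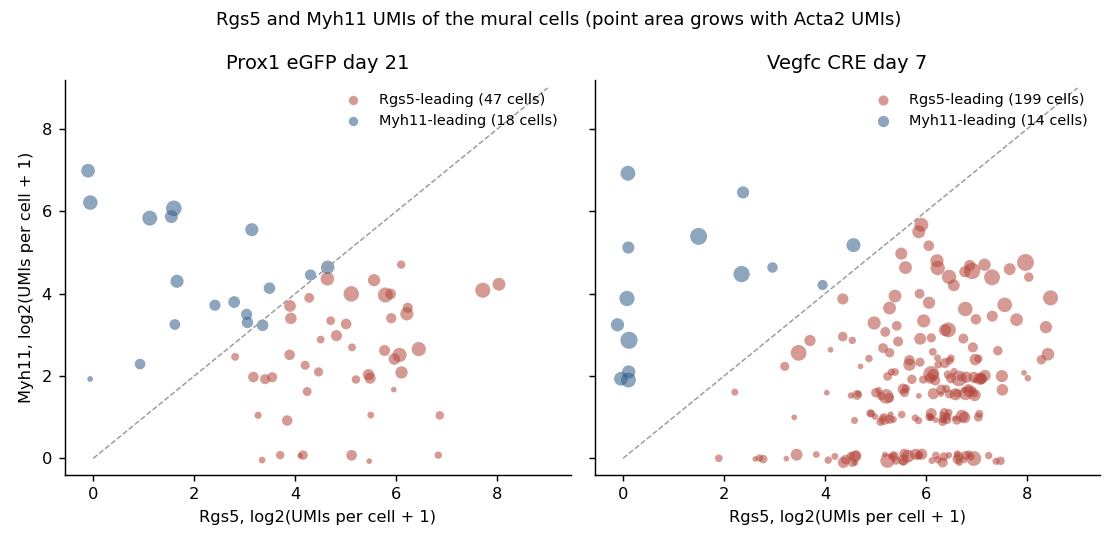
Each point is 1 mural cell, with log2(UMIs + 1) of Rgs5 and Myh11 on the axes and point area growing with Acta2 UMIs, for Prox1 eGFP day 21 and Vegfc CRE day 7. Rgs5-leading cells number 47 and 199, and Myh11-leading cells 18 and 14, with no empty band between the sides.

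Just inside the rule, with 3 or 4 Rgs5 and Myh11 UMIs, were 1 cell at day 21 and 4 cells in Vegfc CRE. The single day 21 cell had no Acta2, 71.0 CPM Notch3 and 18534 CPM of the fibroblast gene Dcn, and the 4 Vegfc CRE cells had 5743 CPM Acta2 and no Notch3. Just outside, with 1 or 2 UMIs, were 4 cells at day 21 (114 CPM Acta2, 16.2 CPM Notch3) and 63 in Vegfc CRE (1466 CPM Acta2, 4.26 CPM Notch3).

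The Myh11-leading side of Vegfc CRE was mixed. Of its 14 cells, 8 had no Rgs5 UMI, and among these 3 had Notch3, a receptor of mural cells, while 6 had the fibroblast receptor Pdgfra. Those 8 cells had 64.0 CPM Notch3, 9718 CPM Col1a1 (type I collagen) and 10863 CPM Acta2. The 6 cells with Rgs5 all had Notch3 and none had Pdgfra, with 19416 CPM Acta2 and 816 CPM Col1a1. At day 21, 17 of 18 Myh11-leading cells had Notch3 and 2 had Pdgfra. The comparisons of the sides that follow include these cells. In Vegfc CRE the 8 cells without Rgs5 held 249836 of the 341771 UMIs of the Myh11-leading sum, so they weigh most in it.

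Along the Rgs5 share of each cell's Rgs5 and Myh11 UMIs, Acta2 and Kcnj8 ran in opposite directions. At day 21 the bins at a share of 0, up to 50%, up to 90%, under 100% and 100% held 3, 15, 26, 14 and 7 cells. Acta2 was 13859, 17292, 9240, 10185 and 2952 CPM across them. Kcnj8, a subunit of the ATP-sensitive potassium channel of pericytes, was 0, 27.4, 127, 191 and 389 CPM. In Vegfc CRE the bins held 8, 6, 38, 113 and 48 cells, with 10863, 19416, 10899, 4990 and 2629 CPM Acta2. Kcnj8 there was 0, 10.9, 80.1, 262 and 300 CPM. Cells without any Myh11 had the lowest Acta2 in each library, and cells without any Rgs5 had no Kcnj8. Not every gene of their lists followed. Des, a contractile gene, was 160, 326, 591, 730 and 478 CPM across the Vegfc CRE bins, and Rgs4, a pericyte gene, was 377, 315, 96.4, 157 and 252 CPM across the day 21 bins. Most of these bins held under 20 cells, so the values describe these cells and were not tested. Notch3 showed no such order at day 21, at 589, 390, 397, 382 and 389 CPM. It was 64.0, 359, 466, 519 and 306 CPM in Vegfc CRE, where the low first bin was the mixed group described above.

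**Figure D2:**
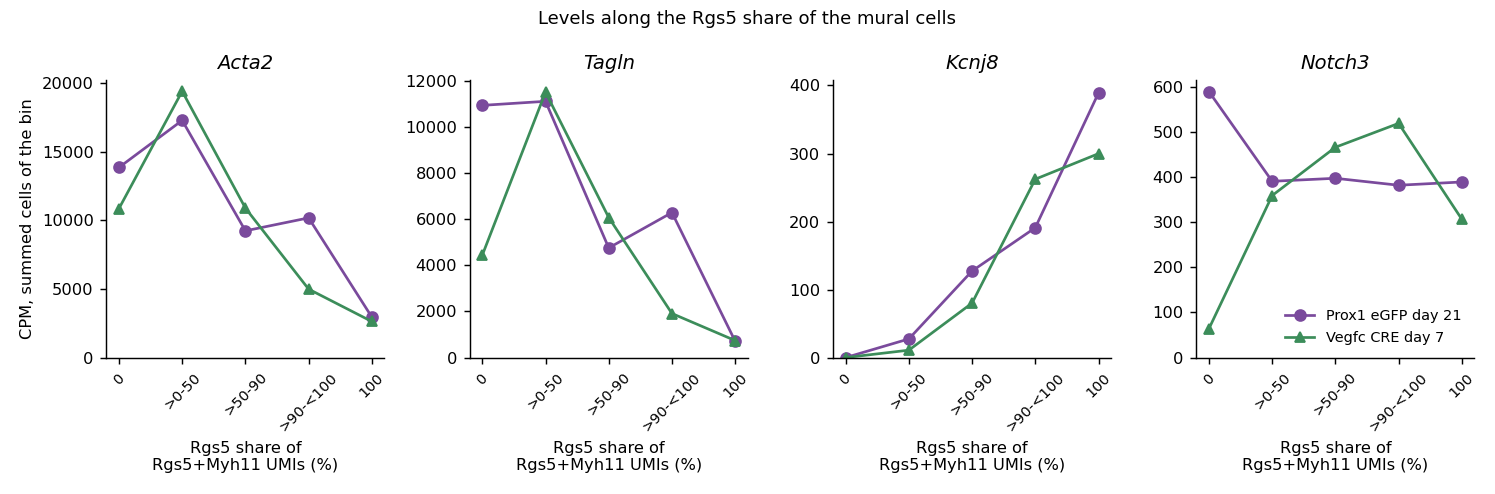
CPM of Acta2, Tagln, Kcnj8 and Notch3 in mural cells summed within 5 bins of the Rgs5 share of Rgs5 and Myh11 UMIs, for both libraries. Acta2 falls to 2952 and 2629 CPM in the bin at 100% and Kcnj8 reaches 389 and 300 CPM there, in Prox1 eGFP day 21 and in Vegfc CRE.

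Which genes differed between Rgs5-leading and Myh11-leading cells was tested on UMIs summed per library and side. Of 17 tested pericyte genes, 5 passed as higher in Rgs5-leading cells, among them the potassium channel genes Kcnj8 and Abcc9. Of 17 tested inflammatory genes, 4 passed as higher. Of 19 tested contractile genes, 12 passed as lower. No gene of these lists passed the other way. Several of these calls were lost in alternative runs, as given below. Of 5405 genes tested, 126 (2.33%) passed an adjusted p of 0.05 in edgeR's quasi-likelihood test with Benjamini-Hochberg adjustment and the library as a block. Of these, 46 (0.851%) were higher and 80 (1.48%) lower in Rgs5-leading cells. The only replicates were the 2 libraries, which differ in line and day, with 1 residual degree of freedom. No gene passed without the block, where 250 had an unadjusted p under 0.05. The calls numbered 23 higher and 29 lower with DESeq2, 25 and 33 with the doublet calls removed, and 12 and 14 with cells over 10% mitochondrial UMIs removed. Rgs5 and Myh11 chose the sides and were not counted. The sides differed in size, with 481132 and 2849861 UMIs in the Rgs5-leading sums of day 21 and Vegfc CRE, and 188393 and 341771 UMIs in the Myh11-leading sums.

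Of the 18 pericyte genes, 17 were tested, with a median log2 fold change of 0.99 against −0.01 over all genes tested. Kcnj8, Abcc9, Higd1b, Vtn and Colec11 passed as higher in Rgs5-leading cells and none as lower. The list's median was 0.25 at day 21 alone and 1.71 in Vegfc CRE alone, so its size rests on Vegfc CRE. Most UMIs of the Myh11-leading sum there came from the cells without Rgs5 described above. With only cells that had Notch3 and lacked Pdgfra, a choice made after seeing the data, the median was 0.65.

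Kcnj8 had 175 and 241 CPM in the Rgs5-leading cells of day 21 and Vegfc CRE, against 21.2 and 2.93 CPM in Myh11-leading cells. The Myh11-leading values rest on 4 UMIs and 1 UMI. Its log2 fold change was 4.37 ± 0.58 (SE, adjusted p = 0.00257 in edgeR's quasi-likelihood test). Counted within a library, Kcnj8 was 8.22-fold higher at day 21 (95% interval 3.09 to 30.9) and 82.4-fold higher in Vegfc CRE (14.7 to 3259). Abcc9, the sulfonylurea receptor subunit of the same channel, had 229 and 364 CPM in Rgs5-leading cells, against 58.4 and 23.4 CPM in Myh11-leading cells. For each subunit both Rgs5-leading sums were above both Myh11-leading sums. How many of all tested genes had sums apart in this way was not counted. Single cells overlapped, with a Kcnj8 UMI in 26 of 47 and 158 of 199 Rgs5-leading cells, against 2 of 18 and 1 of 14 Myh11-leading cells. Abcc9 differed by 2.93 ± 0.46 on the log2 scale (SE, adjusted p = 0.00666 in edgeR's test). Both calls were lost when cells over 10% mitochondrial UMIs were removed.

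Higd1b, a hypoxia-inducible domain gene used as a pericyte marker, had 183 and 264 CPM in Rgs5-leading cells, against 31.9 and 14.6 CPM in Myh11-leading cells. Its log2 fold change of 3.35 ± 0.46 (SE, adjusted p = 0.00276 in edgeR's test) was called in every alternative run except the fit without the block. Vtn, the adhesive glycoprotein vitronectin, had 457 and 211 CPM in Rgs5-leading cells, against 154 and 8.78 CPM in Myh11-leading cells. Colec11, a collectin of innate immunity, had 468 and 87.7 CPM in Rgs5-leading cells, against 101 and 8.78 CPM in Myh11-leading cells. For Vtn both Rgs5-leading sums were above both Myh11-leading sums, while for Colec11 the day 21 Myh11-leading sum was above the Vegfc CRE Rgs5-leading sum. Both passed at a log2 fold change of 2.47. Notch3 did not pass (log2 fold change 0.69, adjusted p = 0.64 in edgeR's test), nor did Cspg4 (NG2 proteoglycan) at −0.68, Mcam (CD146) at 0.16 or Rgs4 at −0.92.

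Of the 20 contractile genes, 19 were tested and 12 passed as lower in Rgs5-leading cells, with none higher and a median of −1.41. The 12 were Pln, Pcp4l1, Smtn, Cnn1, Tpm2, Lmod1, Sncg, Mustn1, Tagln, Myl9, Tpm1 and Acta2. Of these, 7 also passed in all of another scaling, no filter, DESeq2, doublets removed, fewer mitochondrial UMIs and a 3-fold margin between the marker genes. Those 7 were Pln, Tpm2, Mustn1, Tagln, Myl9, Tpm1 and Acta2. The median was −1.16 at day 21 alone, −1.46 in Vegfc CRE alone and −2.05 in the cells with Notch3 and without Pdgfra. Ldb3, Casq2, Synpo2, Mylk, Actg2, Ppp1r14a and Des were not called.

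Pln encodes phospholamban, the inhibitor of the sarcoplasmic reticulum calcium pump, and showed the largest fall of the contractile list. It had 35.3 and 9.83 CPM in the Rgs5-leading cells of day 21 and Vegfc CRE, against 653 and 260 CPM in Myh11-leading cells. The log2 fold change was −4.53 ± 0.34 (SE, adjusted p = 0.000143 in edgeR's quasi-likelihood test). Acta2 had 9018 and 5373 CPM in Rgs5-leading cells, against 16519 and 13164 CPM in Myh11-leading cells, so Rgs5-leading cells kept abundant actin message. This fall in Acta2 was −1.14 ± 0.16 on the log2 scale (SE, adjusted p = 0.00432 in edgeR's test). Tagln had 4955 and 2311 CPM in Rgs5-leading cells, against 11073 and 6341 CPM in Myh11-leading cells. Tpm2, a tropomyosin of the thin filament, had 1422 and 1630 CPM in Rgs5-leading cells, against 4655 and 4535 CPM in Myh11-leading cells. For Tagln and Tpm2 both Rgs5-leading sums were below both Myh11-leading sums. Myl9, the regulatory myosin light chain, had 2436 and 1177 CPM in Rgs5-leading cells, against 5934 and 2426 CPM in Myh11-leading cells. Here the day 21 Rgs5-leading sum was as high as the Vegfc CRE Myh11-leading sum, and the fall of 1.22 ± 0.19 on the log2 scale (SE, adjusted p = 0.0071 in edgeR's test) holds within each library.

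**Figure D3:**
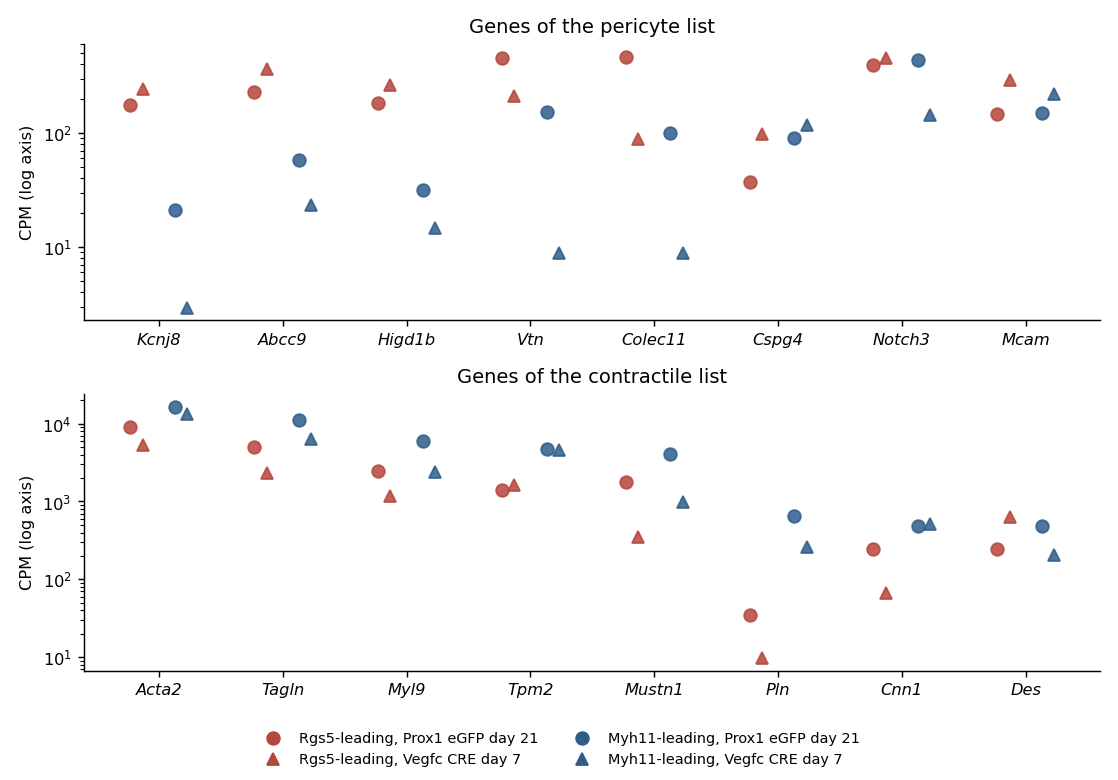
CPM on a log axis of 8 pericyte and 8 contractile genes in the Rgs5-leading and Myh11-leading sums of Prox1 eGFP day 21 and Vegfc CRE day 7. Kcnj8 stands at 175 and 241 CPM in Rgs5-leading cells and 21.2 and 2.93 CPM in Myh11-leading cells, and Pln at 35.3 and 9.83 CPM against 653 and 260 CPM.

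Many smooth muscle genes are known to be driven by serum response factor, which binds the CArG box, CC, then 6 letters of A or T, then GG. Promoters from 250 bases before to 50 bases after the RefSeq start (GRCm38.p6, the mm10 assembly) are printed for 2 contractile genes and 1 pericyte gene that passed the test. Capitals mark CArG boxes, or boxes with 1 of the 6 letters replaced by G or C.
Acta2: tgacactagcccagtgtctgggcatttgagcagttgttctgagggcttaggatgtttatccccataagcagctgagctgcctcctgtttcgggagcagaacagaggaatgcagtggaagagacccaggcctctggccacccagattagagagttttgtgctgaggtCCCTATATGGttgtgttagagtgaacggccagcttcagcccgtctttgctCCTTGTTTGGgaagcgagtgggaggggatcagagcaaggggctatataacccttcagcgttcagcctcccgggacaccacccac
Myl9: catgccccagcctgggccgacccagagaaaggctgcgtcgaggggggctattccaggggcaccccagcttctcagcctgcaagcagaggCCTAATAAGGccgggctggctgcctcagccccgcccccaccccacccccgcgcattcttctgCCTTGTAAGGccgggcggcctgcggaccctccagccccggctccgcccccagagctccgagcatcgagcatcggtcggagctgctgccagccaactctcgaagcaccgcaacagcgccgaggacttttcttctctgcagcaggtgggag
Kcnj8: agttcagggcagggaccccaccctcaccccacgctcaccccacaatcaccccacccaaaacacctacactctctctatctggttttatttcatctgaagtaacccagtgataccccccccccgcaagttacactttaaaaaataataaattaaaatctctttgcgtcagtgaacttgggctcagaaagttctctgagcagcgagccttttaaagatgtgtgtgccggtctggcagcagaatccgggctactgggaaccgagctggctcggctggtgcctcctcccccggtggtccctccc

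The Acta2 window is chr19:34255324-34255623 on the minus strand, with matches starting 84 and 34 bases before the start. The Myl9 window is chr2:156775214-156775513 on the plus strand, with matches 161 and 99 bases before the start, of which 1 is an unaltered box. No match was found in Kcnj8, chr6:142571565-142571864 on the minus strand. Both strands were searched. An unaltered box occurred in 535 of 32851 mouse promoters of this length (1.63%) and the wider form in 3280 (9.98%). Of 18 promoters of the contractile list, 17 of whose 20 genes had an entry, 3 held the unaltered box (16.7%) and 5 the wider form (27.8%). By gene these were 2 and 4, since both Ldb3 promoters matched, and Ldb3 did not pass the test. Of the 11 genes with an entry that passed as lower, 3 held the wider form and 8 held neither. The 15 promoters found for 13 of the 18 pericyte genes held neither. A match describes letters only.

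Of 21 genes of vascular tone, 13 were tested, and 4 passed as higher in Rgs5-leading cells and none as lower, with a median of 0.48. Besides Kcnj8 and Abcc9 these were Adra2a, an adrenergic receptor, and Rgs16, a regulator of G-protein signalling like Rgs5. Rgs16 had 474 and 157 CPM in Rgs5-leading cells, against 63.7 and 8.78 CPM in Myh11-leading cells. The Rgs16 log2 fold change was 3.26 ± 0.40 (SE, adjusted p = 0.0019 in edgeR's test). The endothelin receptors Ednrb and Ednra, which bind a vasoconstrictor peptide, had log2 fold changes of 2.68 and 1.30 that missed the threshold (adjusted p = 0.0794 and 0.0875 in edgeR's test).

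Among 23 inflammatory genes, 17 were tested and Ccl2, Cxcl1, Ccl11 and Il6 passed as higher in Rgs5-leading cells, with none lower and a median of 0.91. Ccl2, a monocyte chemokine, had 154 and 199 CPM in Rgs5-leading cells, against 5.31 and 11.7 CPM in Myh11-leading cells. It was detected in 11 of 47 Rgs5-leading cells at day 21 and 54 of 199 in Vegfc CRE, against 1 of 18 and 4 of 14 Myh11-leading cells. Its highest cells held 32 and 130 UMIs on the Rgs5-leading side, and no Myh11-leading cell had over 1 UMI. In Vegfc CRE the gene was thus found in 27.1% of Rgs5-leading and 28.6% of Myh11-leading cells. Median depth there was 11334 UMIs in Rgs5-leading and 19942 UMIs in Myh11-leading cells, and these shares were not thinned to equal depth. The Ccl2 log2 fold change was 4.23 ± 0.48 (SE, adjusted p = 0.00118 in edgeR's test). Cxcl1, a neutrophil chemokine, had 513 and 136 CPM in Rgs5-leading cells, against 138 and 46.8 CPM in Myh11-leading cells. The Rgs5-leading sum was the higher in each library, but that of Vegfc CRE was below the day 21 Myh11-leading sum. Il6 had 85.2 and 54.4 CPM in Rgs5-leading cells, against 15.9 CPM and no UMI in Myh11-leading cells. Cxcl1 was lost when cells over 10% mitochondrial UMIs were removed, and Ccl11 and Il6 also when doublets were removed.

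The other lists held few calls. Ebf1 was the 1 of 13 tested mural transcription factors that passed, with 1339 and 753 CPM in Rgs5-leading cells, against 653 and 184 CPM in Myh11-leading cells. Myocd, the coactivator of serum response factor in smooth muscle, had a log2 fold change of −1.24 (adjusted p = 0.32 in edgeR's test). Of 8 Notch genes, the nuclear receptor-interacting gene Nrip2 passed as lower at −2.01 ± 0.34 (SE, adjusted p = 0.0112 in edgeR's test). Col4a1, a basement membrane collagen chain, passed as higher, with 1091 and 1849 CPM in Rgs5-leading cells, against 648 and 497 CPM in Myh11-leading cells, while Col4a5 passed as lower. Ltbp1 and Inhba, of 21 tested TGF-beta and BMP genes, passed as lower. None of 24 fibrillar matrix genes, 19 proliferation genes, 14 glycolysis genes, 12 fibroblast markers or 5 PDGF and VEGF genes passed in edgeR's test. Over all genes 2.33% were called, and 601 of 5405 genes (11.1%) had an unadjusted p under 0.05.

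Outside the lists, the largest differences were found by a rule of size. Dlk1, a Notch-ligand-like membrane protein, had 154 and 196 CPM in Rgs5-leading cells, against no UMI and 2.93 CPM in Myh11-leading cells. At day 21, 60 of its 74 UMIs came from 1 cell, whereas 88 of 199 Rgs5-leading cells had it in Vegfc CRE. Cyp4b1, a cytochrome P450, was broader, with a UMI in 20 of 47 and 94 of 199 Rgs5-leading cells at 79.0 and 82.1 CPM, against no UMI and 2.93 CPM in Myh11-leading cells. In the other direction Itga8, an integrin subunit of smooth muscle, had 14.6 and 7.37 CPM in Rgs5-leading cells, against 149 and 132 CPM in Myh11-leading cells. The Itga8 log2 fold change was −3.89 ± 0.43 (SE, adjusted p = 0.00118 in edgeR's test). Synm (the intermediate filament synemin) and Sorbs2 were also lower, at −3.06 and −2.84 on the log2 scale.

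Mural cells were next set against 159 fibroblast-gated cells of day 21 and 955 of Vegfc CRE, which had Pdgfra and at least 10 UMIs of Dcn, Col1a1 and Col3a1. The gate also required no Rgs5 or Myh11 UMI and kept the mural rule's other bars. Genes of either gate were not tested. Barring Rgs5 and Myh11 can leave out fibroblasts with contractile or pericyte transcripts, so part of the differences may come from the choice of cells. Most tested pericyte, contractile, vascular tone and Notch genes were higher in mural cells, and most tested fibrillar matrix and tendon, cartilage and bone genes were lower. Of 11167 genes tested, 1795 (16.1%) passed edgeR's quasi-likelihood test, 810 (7.25%) higher and 985 (8.82%) lower. Fibroblast-gated cells were deeper than mural cells, as given above.

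Pericyte genes passed as higher for 14 of 17 tested, with a median of 2.99, and 1, Anpep, passed as lower. Notch3 had 403 and 420 CPM in mural cells of day 21 and Vegfc CRE, against 7.46 and 3.43 CPM in fibroblast-gated cells. Notch3 thus differed by 6.28 ± 0.37 on the log2 scale (SE, adjusted p = 1.97e-05 in edgeR's test). Higd1b had 140 and 237 CPM in mural cells, against no UMI and 0.0868 CPM in fibroblast-gated cells. Gja4, the gap junction protein connexin 37, had 197 and 168 CPM in mural cells, against 0.648 and 0.26 CPM in fibroblast-gated cells. Olfr558, an olfactory receptor gene found by the rule of size, had 200 and 119 CPM in mural cells, against no UMI in either fibroblast-gated sum. It was detected in 41 of 65 and 128 of 213 mural cells. Kcnj8 was less exclusive, with 131 and 216 CPM in mural cells, against 26.9 and 15.2 CPM in fibroblast-gated cells.

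Contractile genes passed as higher for 18 of 19 tested, with a median of 4.73 and Smtn as the exception. Acta2 had 11129 and 6207 CPM in mural cells, against 185 and 823 CPM in fibroblast-gated cells. Its log2 fold change was 4.23 ± 0.72 (SE, adjusted p = 0.00407 in edgeR's test). Des, the muscle intermediate filament desmin, had 315 and 593 CPM in mural cells, against 4.54 and 11.3 CPM in fibroblast-gated cells. Tone genes passed as higher for 16 of 20, none as lower. Gucy1a1, a subunit of the nitric oxide receptor, had 597 and 227 CPM in mural cells, against 20.8 and 2.21 CPM in fibroblast-gated cells. Among transcription factors, 9 of 17 were higher and 2, Klf2 and Klf4, lower. Epas1, the hypoxia factor HIF-2 alpha, had 239 and 258 CPM in mural cells, against 8.10 and 9.98 CPM in fibroblast-gated cells.

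Notch genes passed as higher for 8 of 10 tested and none as lower. Nrarp, a target and feedback inhibitor of Notch, had 61.2 and 73.0 CPM in mural cells, against no UMI and 0.217 CPM in fibroblast-gated cells. Jag1, a Notch ligand, had 187 and 82.4 CPM in mural cells, against 41.5 and 22.6 CPM in fibroblast-gated cells. Among PDGF, VEGF and angiopoietin genes 3 of 12 were higher and 4 lower. Pdgfa, a ligand of PDGFRA, had 308 and 299 CPM in mural cells, against 31.1 and 32.7 CPM in fibroblast-gated cells. Angpt2, an antagonist of the endothelial receptor TEK, had 80.7 and 51.4 CPM in mural cells, against 1.95 and 2.43 CPM in fibroblast-gated cells. Vegfd, a lymphangiogenic factor, was lower by a log2 fold change of −3.16 ± 0.29 (SE, adjusted p = 0.000175 in edgeR's test).

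Basement membrane genes passed as higher for 9 of 19 tested and as lower for 3, and fibrillar matrix genes as higher for 1 of 22 and as lower for 13. Itga7, a laminin receptor subunit, had 85.1 and 103 CPM in mural cells, against 1.95 and 2.13 CPM in fibroblast-gated cells. Col1a2 had 3532 and 3128 CPM in mural cells, against 13783 and 12217 CPM in fibroblast-gated cells. Fibronectin (Fn1) had 623 and 853 CPM in mural cells, against 3223 and 3459 CPM in fibroblast-gated cells. Tendon, cartilage and bone genes passed as lower for 8 of 12 and as higher for 1. Scx, the tendon transcription factor scleraxis, had 2.99 and 0.627 CPM in mural cells, against 27.9 and 31.5 CPM in fibroblast-gated cells. Comp, a cartilage oligomeric matrix protein, had 5.97 and 15.7 CPM in mural cells, against 176 and 205 CPM in fibroblast-gated cells. The 14 endothelial markers of other cells summed to 450 and 411 CPM in mural cells, against 145 and 99.2 CPM in fibroblast-gated cells, and 5 of 9 tested passed as higher, Flt1 among them, and 1, Tek, as lower.

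**Figure D4:**
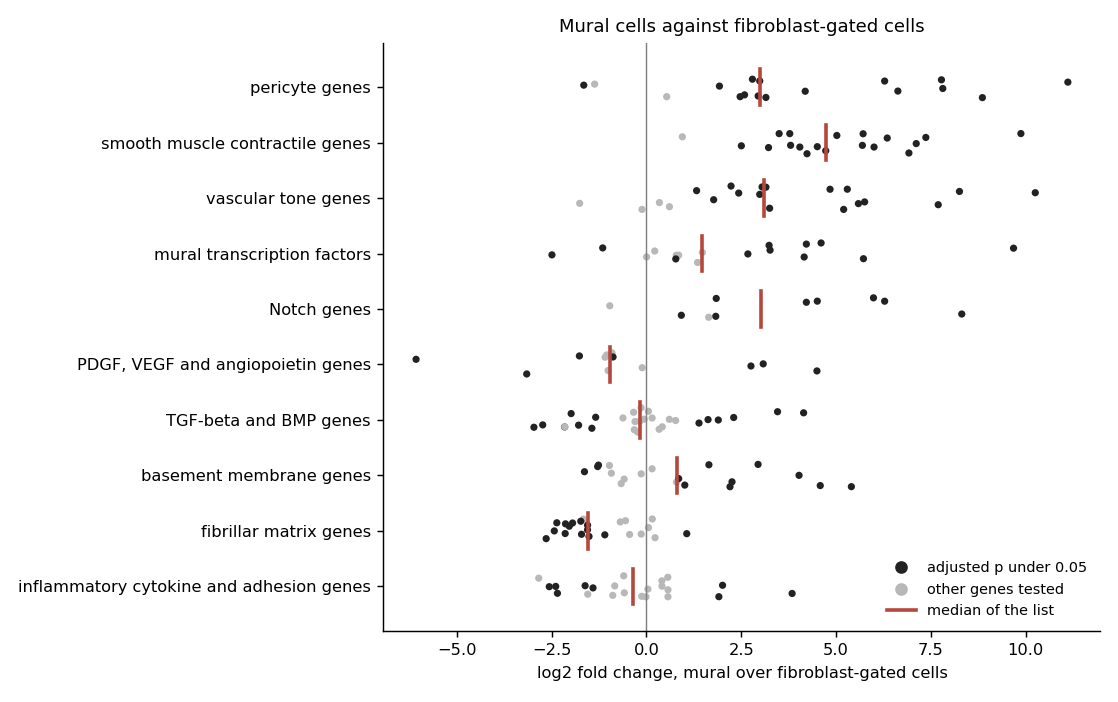
Log2 fold change of mural against fibroblast-gated cells for the genes of 10 lists, 1 point per gene, with filled points for genes past an adjusted p of 0.05. Contractile genes centre on 4.73 and pericyte genes on 2.99, and fibrillar matrix genes on −1.55.

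The 2 libraries were then set side by side within mural cells, with values of Prox1 eGFP day 21 over Vegfc CRE day 7. With 1 library per group there is no test, and folds carry 95% intervals that cover counting error only. Contractile, Notch and immediate early genes were higher at day 21, and proliferation genes were higher in Vegfc CRE. Fibroblast-gated cells also had a higher Notch sum at day 21, 388 against 151 CPM (1411 and 995 CPM in mural cells). Their immediate early and heat shock sum was 7667 against 4991 CPM (11083 and 6385 CPM in mural cells). Their contractile sum went the other way, 1074 against 2527 CPM. Whether the shared shifts run through the whole libraries was not tested. Of 11432 genes with at least 10 UMIs, 1380 (12.1%) were at least 2-fold higher at day 21 and 1344 (11.8%) at least 2-fold lower.

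Of 20 contractile genes, 13 were at least 2-fold higher at day 21 and none as much lower, with a median log2 ratio of 1.28 against 0.06 over all genes. Within Rgs5-leading cells alone, where 11.3% of 11121 genes were as much higher and 11.9% lower, 9 contractile genes were higher and 1 lower, with a median of 0.96. Tagln had 6676 CPM in mural cells at day 21, against 2742 CPM in those of Vegfc CRE, a 2.43-fold ratio (2.35 to 2.52). Mustn1, a small muscle nuclear protein, was 5.90-fold higher at day 21 (5.49 to 6.35). Acta2 was 1.79-fold higher (1.75 to 1.84), and Des was 1.88-fold lower (1.63 to 2.18). The share of Myh11-leading cells was also larger at day 21. Pericyte genes had a median of −0.56, with 2 of 18 at least 2-fold higher, Colec11 and Rgs4, and 2 lower, Cd248 and Anpep. Within Rgs5-leading cells their median was −0.50, with 2 higher and 3 lower. Within Myh11-leading cells it was 1.32, with 10 of 17 higher and none lower. There 18.3% of 5997 genes were as much higher and 16.8% lower. That side of Vegfc CRE was mixed, as given above. Notch3 had a ratio of 0.960 (0.839 to 1.09).

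Immediate early and heat shock genes were at least 2-fold higher at day 21 for 13 of 20 and lower for 1, with a median of 1.30. Fos had 1897 CPM at day 21, against 388 CPM in Vegfc CRE, a 4.89-fold ratio (4.52 to 5.29). Hspa1b, an inducible heat shock protein, was 2.93-fold lower. The part of dissociation in these genes was not tested. Notch genes were higher for 5 of 10 and lower for none, with a median of 0.70, among them Jag1 at 2.27-fold and Nrip2 at 3.85-fold. TGF-beta and BMP genes were higher for 9 of 26 and lower for 2. Id4, a BMP-responsive inhibitor of basic helix-loop-helix factors, was 4.99-fold higher, and Bmp2 was 4.26-fold higher. Fst, the activin antagonist follistatin, had 327 CPM at day 21, against 44.5 CPM in Vegfc CRE and was found in 39 of 65 and 54 of 213 mural cells. Fibroblast-gated cells had 93.7 and 76.8 CPM Fst. Endothelial-gated cells, chosen by Pecam1 and Cdh5, had 59.5 and 8.26 CPM, so the difference was not particular to mural cells.

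Inflammatory genes went both ways, with 7 of 21 at least 2-fold higher and 4 lower. Cxcl1 was 3.22-fold higher at day 21, while Ccl8 was 13.3-fold lower (5.12 to 49.1) and Cxcl2 6.05-fold lower. Of the 253 Ccl8 UMIs in the mural cells of Vegfc CRE, 92 came from 1 cell, and 56 of 213 cells had any. Fibroblast-gated cells also had more Cxcl1 at day 21, 413 against 101 CPM in Vegfc CRE, but their Ccl8 was higher at day 21, 168 against 81.0 CPM. Leukocyte markers were higher in the mural cells of Vegfc CRE than of day 21, as given above, and their part in the mural differences was not tested. C1qb, a macrophage gene, was 29.2-fold lower at day 21, and 58 of its 139 UMIs in Vegfc CRE came from 1 cell.

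Proliferation genes were at least 2-fold lower at day 21 for 19 of 20, with a median log2 ratio of −3.31. Within Rgs5-leading cells 19 were also lower. Within Myh11-leading cells 18 were lower, where 35.2% of 5997 genes differed at least 2-fold in either direction and 16.8% were lower. On that side of Vegfc CRE, 3 of 14 cells held 504 of the 545 proliferation UMIs. Mki67, the classical marker of cycling cells, was 17.8-fold lower at day 21 (6.88 to 65.6), with a UMI in 3 of 65 cells at day 21 and 48 of 213 in Vegfc CRE. The 20 genes together made 243 CPM at day 21, against 1863 CPM in Vegfc CRE. They reached 20 UMIs in 1 of 65 cells at day 21 (1.54%, 0.0389 to 8.28) and in 39 of 213 in Vegfc CRE (18.3%, 13.4 to 24.2), a threshold chosen after seeing the data. With each cell thinned to 2000 UMIs, which left out 1 and 5 shallower cells, 4 UMIs were reached by 1 of 64 cells (1.56%) and 31 of 208 (14.9%). In Vegfc CRE, 39 cells held 89.9% of these UMIs, so the level came from a minority of cells. Fibroblast-gated cells moved the same way, with 20 UMIs in 1.89% at day 21 and 13.6% in Vegfc CRE.

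**Figure D5:**
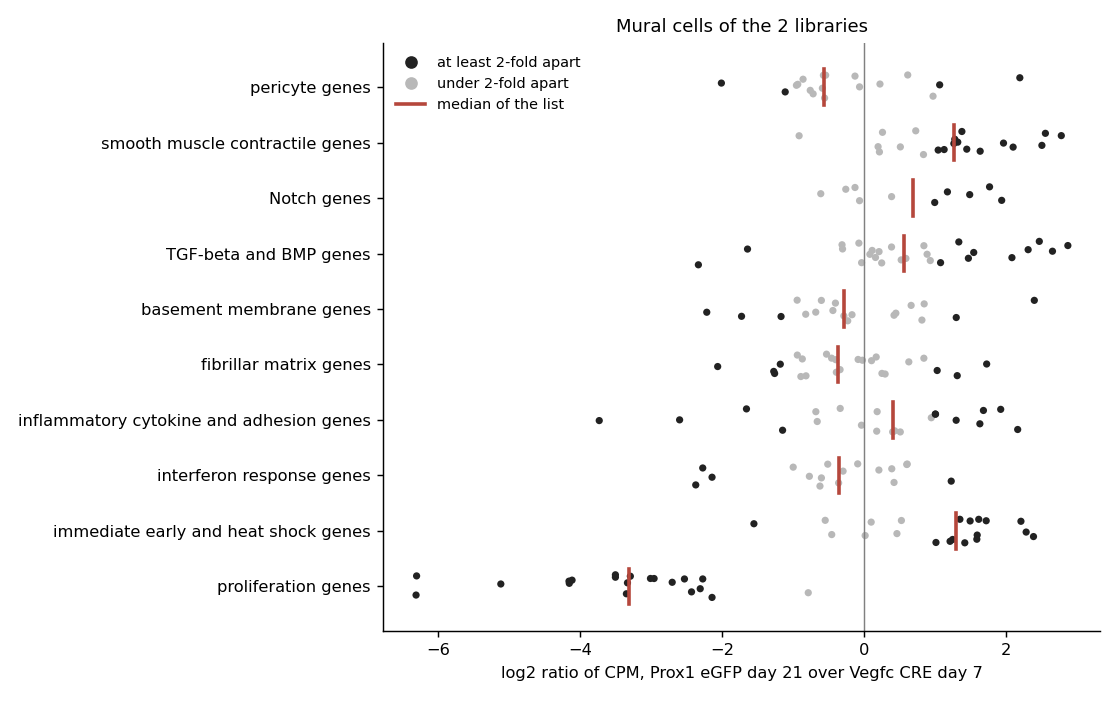
Log2 ratio of CPM in Prox1 eGFP day 21 over Vegfc CRE day 7 in mural cells for the genes of 10 lists, 1 point per gene, with genes at 0 in 1 library drawn at their bound. Proliferation genes centre on −3.31, contractile genes on 1.28 and immediate early genes on 1.30.

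Beyond the lists, the largest ratios again need the cells behind them. Gstm1, a glutathione transferase, had 880 CPM at day 21, against 118 CPM in Vegfc CRE, a 7.45-fold ratio (6.53 to 8.5), with a UMI in 54 of 65 and 108 of 213 cells. Fibroblast-gated cells also had more Gstm1 at day 21, 140 against 47.1 CPM. Myog, a skeletal muscle transcription factor, had 69 UMIs at day 21, all in 1 cell that was called a doublet and also had 6 Myod1 UMIs and 107 Rgs5 UMIs. Birc5 and Ube2c, which act in cell division, each had 1 UMI at day 21, against 379 and 377 in Vegfc CRE, 79.5-fold (14.2 to 3148) and 79.1-fold (14.1 to 3132) lower. Of the 10 largest falls, histone genes such as Hist1h2ae, with 1 UMI at day 21 and 398 in Vegfc CRE, belong to a family of near-identical copies whose reads the counting could split, so their values are uncertain.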

How the data were processed

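Per the submitters' processing notes, the authors used Cell Ranger 5.0.1 and mm10. The deposited matrices hold raw UMI counts per gene and barcode from a 10x 3′ v3 assay, in which only the 3′ end of a transcript is read. The members and gene lists were chosen with earlier results of these data known.

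With Python 3.11.15 and scanpy 1.11.5, barcodes were required to have 500 genes or more, 1000 UMIs or more, and a mitochondrial share below 15%. Scrublet marked doublets, which were kept: 1.58% of cells at day 21 and 1.56% in Vegfc CRE. Library depth was 59894792 UMIs at day 21 and 92568978 in Vegfc CRE. Intervals and floors (3 counts) cover counting error only. Raw UMIs were summed per library and cell group, filtered by filterByExpr and tested with edgeR 4.0.16 (R 4.3.3), TMM and the library as block. Same-library sums pair because they come from the same pooled tissue. The libraries themselves share no replicate, so p-values measure the spread over 2 libraries only. Alternatives were relative log expression scaling, no filter, DESeq2 1.42.0, no block, doublets removed, mitochondrial UMIs under 10%, a 3-fold margin between Rgs5 and Myh11, and thinning to 2000 UMIs. Other entry thresholds were used only to count cells, and no contrast was rerun with them. Between libraries, ratios of CPM were given for genes of at least 10 UMIs with no test.

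Genes named were the members of the lists and, per contrast, up to 10 of the largest changes each way with at least 50 UMIs and the same direction in both libraries; genes named for other reasons were chosen after their values were seen. The days 0 and 7 Prox1 eGFP libraries enter no comparison, since 12 and 1 cells met the rule there. One gene whose direction differed between the libraries is not reported here.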

Additional observations from a re-analysis of the deposited data

Results flagged for a closer look

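For 4 genes given here the Rgs5-leading and Myh11-leading cells differed in opposite directions in the 2 libraries, as log2 CPM differences of Rgs5-leading minus Myh11-leading cells, and that disagreement was not tested. Cxcl5, a neutrophil chemokine, differed by 3.81 at day 21 and by −4.01 in Vegfc CRE, and 12 of its 13 UMIs in the Rgs5-leading cells of day 21 came from 1 cell. Actc1, cardiac actin, differed by −1.90 at day 21 and by 2.99 in Vegfc CRE, and all 23 UMIs of the Myh11-leading cells of day 21 came from 1 cell. Clec3b, a fibroblast gene, differed by −2.13 at day 21 and by 3.48 in Vegfc CRE, and 20 of 27 UMIs of the day 21 Myh11-leading cells came from 1 cell. Ccn2, connective tissue growth factor, differed by 1.98 at day 21 and by −1.16 in Vegfc CRE.

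Cells meeting the rule also occurred in the libraries that no comparison used. In Prox1 eGFP day 0, the untreated group, 12 of 690 cells did (1.74%, exact binomial interval 0.902 to 3.02), with 711 CPM Acta2 and 96.9 CPM Notch3. They also had 12391 CPM of the fibroblast gene Dcn, 5427 CPM Ccl19 and 1796 CPM Cxcl13, a chemokine of lymphoid stroma. In Prox1 eGFP day 7, 1 of 4872 cells did, with 2103 CPM Acta2.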

How the results depend on the processing

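Of the 126 genes called between Rgs5-leading and Myh11-leading cells, none changed sign in any alternative run in which it was tested. The genes tested numbered 5405 in the main run, 16222 with no filter, 4933 with sides at least 3-fold apart and 1038 after thinning. The numbers called higher and lower were 139 and 174 with no filter, 23 and 29 with DESeq2 and 25 and 33 with doublets removed. They were 12 and 14 with mitochondrial UMIs under 10%, 121 and 154 with sides at least 3-fold apart, and 15 and 27 after thinning. Without the replicate block, which pairs the sums of 1 library, 0 were higher and 0 lower. In all of these but the block and thinning, 24 genes were called, among them Pln, Acta2, Tagln, Dlk1, Higd1b and Ccl2. Leaving out 1 library moved the contractile median between −1.46 and −1.16 and the pericyte median between 0.25 and 1.71. With Notch3-positive, Pdgfra-negative cells only, chosen after seeing the data, the contractile median was −2.05. That choice left 8 Myh11-leading cells in Vegfc CRE, under the set minimum of 10 cells on a side, so only list medians of its fit are given.

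Against fibroblast-gated cells, DESeq2 called 512 higher and 487 lower, and the fit without the replicate block 283 and 222. Leaving out 1 library moved the pericyte median between 2.82 and 3.58. Between libraries, a minimum of 50 UMIs left 632 genes at least 2-fold higher and 661 lower. TMM scaling gave 1133 and 1611. Depth limits genes of a few UMIs on the Myh11-leading side.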
